A study of Hydra vulgaris with 30 samples.

Results

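Regenerating tips of *Hydra* kept in UNC0379 were compared at 8 and 0 hours postamputation (hpa). Members were the libraries that the sample labels place in UNC0379 at 8 hpa or 0 hpa, with 3 libraries in each group, which made 6 of the 30 libraries of the series. The animals were polyps of 1 clone of *Hydra vulgaris*, strain Ind-Pune, and all were decapitated, and the 0 hpa tips were taken from decapitated polyps too, so that uncut tissue was not analysed here. UNC0379 is a small-molecule inhibitor of SETD8 (KMT5A). Its dose stands in the labels as 150 µM under the treatment and, with the same figure, in mM under the protocol. The reference for the response to decapitation without the inhibitor was the tips of polyps in the vehicle, 0.2% DMSO, at 8 and 0 hpa, again with 3 libraries in each group. The sources used here do not say when the inhibitor was added before this decapitation. In its other regeneration assays, the study treated polyps for 8 h before the cut and went on afterwards. Where treatment goes on after the cut, time after the cut and time in UNC0379 run together. They cannot be told apart within the inhibitor series. The labels do not tie replicates to separate cultures, so that p-values measure only the spread between these libraries, which may be technical.

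A decapitated *Hydra* polyp rebuilds its head from the tissue of the stump, without a need for much cell division. Wnt/β-catenin signalling rises early at the wound and sets up a new head organizer, a small group of cells that instructs the neighbouring tissue to form a hypostome and tentacles. SETD8 is the methyltransferase that places a single methyl group on lysine 20 of histone H4, a mark that has been linked to active as well as silent genes.

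Counts were of 3′ tags, which are not proportional to transcript length, and levels are given as CPM, the counts scaled to a common normalized library size. Assigned reads numbered 499958, 612025 and 648321 in the 0 hpa libraries and 368070, 557186 and 512399 in the 8 hpa libraries, against 146798 to 811079 over the series, so that 1 count was worth 1.67 to 2.54 CPM in the 6 libraries. For each assigned read, 1.06 to 1.20 reads were set aside as ambiguous between transcripts, and transcripts with near-identical copies are therefore uncertain. Of 51290 transcripts, 33806 had 0 counts in all 6 libraries, and 5046 passed a filter on low counts and were tested. The identifiers of the files were not paired with gene names in the reference table used here, so that neither pathway lists nor markers of the tip tissue could be tested, and no position in the genome is given. Transcripts are named by identifier, with a gene name for those loci where the study prints one beside the identifier.

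Replicate 3 of UNC0379 0 hpa stood apart from the other replicates of its group. Across the 5046 tested transcripts, which are not independent, its log2 CPM had a Pearson r of 0.894 and 0.870 with replicates 1 and 2, against 0.950 between those replicates. The 3 pairs of UNC0379 8 hpa libraries had r from 0.941 to 0.955. The mean r of replicate 3 was 0.928 with the DMSO 24 hpa libraries, 0.893 with DMSO 0 hpa, 0.882 with its own group and 0.862 with UNC0379 8 hpa. One of these DMSO 24 hpa libraries, replicate 3, had 98.2% unaligned reads and 625103 assigned reads. Replicate 3 of UNC0379 0 hpa also had the fewest unaligned reads among the 0 hpa replicates, with 36.7% against 50.2% and 47.5%. Its part in the results was measured by leaving it out.

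After 8 h of regeneration under UNC0379, 302 of 5046 transcripts (5.98%) had changed at an adjusted p under 0.05 (edgeR's quasi-likelihood test with Benjamini-Hochberg adjustment). A rise was found for 119 (2.36%) and a fall for 183 (3.63%). Among the rises, 113 exceeded 2-fold and 46 exceeded 4-fold, with a median log2 change of 1.85 and an interquartile range from 1.40 to 2.36. Among the falls, 160 exceeded 2-fold and 36 exceeded 4-fold, with a median of −1.43 and an interquartile range from −1.82 to −1.22. The median over all tested transcripts was −0.02. The 3 libraries of each time did not overlap for 116 of the 119 rises and 172 of the 183 falls, against 9.06% and 10.7% of all tested transcripts in these directions. In tips, fewer cells of a type and less RNA per cell cannot be told apart. Without replicate 3 of 8 hpa, 198 transcripts passed (110 of them falls), and without replicate 3 of 0 hpa the rises numbered 79.

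**Figure D1:**
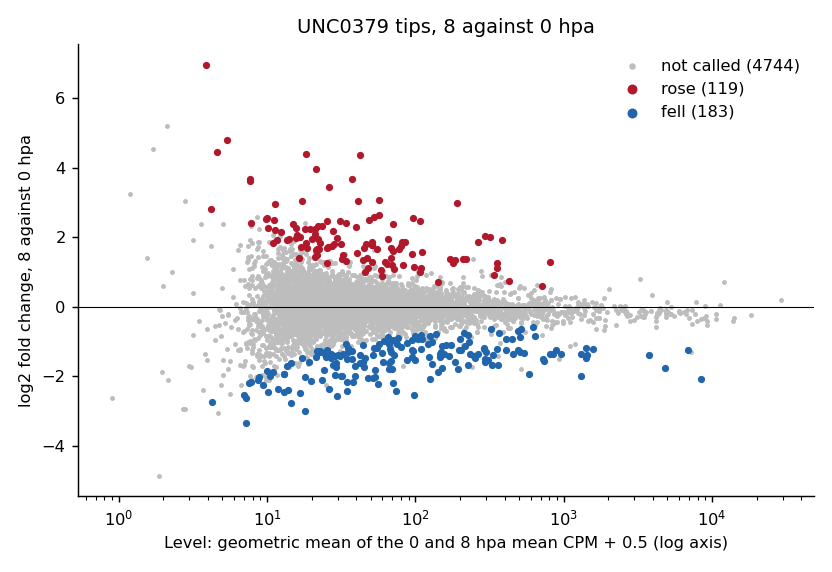
Change in UNC0379 tips from 0 to 8 hpa (log2 fold change, vertical axis) against the level of each tested transcript (geometric mean of the mean CPM + 0.5 at both times, log axis). Each point is a transcript; the 119 that rose are red, the 183 that fell are blue, and the falls extend further to the right than the rises.

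By the median transcript, the falls were more abundant than the rises at 0 hpa and less abundant at 8 hpa. The choice of the transcripts by their change between these times enters into this crossing. By summed share of the normalized total, the falls stayed above the rises at 8 hpa. The median transcript that fell had a mean of 117 CPM at 0 hpa and 43.9 CPM at 8 hpa. The median transcript that rose had 17.9 CPM at 0 hpa and 76.2 CPM at 8 hpa, and the median over all tested transcripts and all 30 libraries was 34.7 CPM. Together, the 183 that fell held 9.01%, 9.86% and 10.2% of the normalized total in the 0 hpa libraries and 3.49% to 3.57% in the 8 hpa libraries. The 10 most abundant of them made up 58.3% of the group's share at 0 hpa. Their mean share went from 5.65% to 1.87% of the normalized total, which was 61.2% of the loss of all 183. The 119 that rose held 0.579%, 0.588% and 0.528% at 0 hpa and 1.66%, 1.62% and 1.69% at 8 hpa, with 41.0% of the latter in the top 10. In all 6 libraries, the groups thus separated without overlap, which the choice of the transcripts fixes. At 0 hpa, 6 of the rises had at most 3 counts over the group. One of these had 0 counts at 0 hpa and 44 at 8 hpa. Per assigned read, before normalization, this is 18.0-fold higher than a floor of 3 counts over the 0 hpa group. The floor covers counting error at 0 hpa only, and the error of the 44 counts is left out.

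The rise with the smallest adjusted p was that of Sc4wPfr_338.1.g31652.t1. It stood at 72.1, 62.8 and 66.8 CPM in the 0 hpa libraries and at 569, 590 and 457 CPM in the 8 hpa libraries, a log2 change of 3.00 (SE 0.29, n = 3 against 3, edgeR adjusted p = 1.6e-08). Each 8 hpa library was far above each 0 hpa library. In DMSO its levels were 53.7, 69.4 and 46.2 CPM at 0 hpa and 58.5, 98.3 and 113 CPM at 8 hpa, so that the groups overlapped (log2 change 0.70, edgeR adjusted p = 0.234). The change under UNC0379 exceeded that in DMSO by 2.29 on the log2 scale (SE 0.41, edgeR adjusted p = 5.4e-04). Among the libraries that the 8 against 0 hpa contrast did not use, it stood at 424, 348 and 336 CPM under UNC0379 at 3 hpa and 355, 334 and 316 CPM at 12 hpa, above DMSO at both times (log2 difference 2.44 and 1.91, edgeR adjusted p = 1.1e-07 and 7.0e-06). At 24 hpa its UNC0379 libraries had 321, 302 and 77.7 CPM, the last in replicate 3, which at 146798 assigned reads was the shallowest of the series.

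Sc4wPfr_1085.g19568.t1 rose in both treatments. Its UNC0379 libraries had 2.1, 5.4 and 3.3 CPM at 0 hpa, or 6 counts in all, and 71.1, 98.0 and 72.5 CPM at 8 hpa, or 123 counts (log2 change 4.39, SE 0.47, edgeR adjusted p = 8.6e-08). In DMSO it had 2.5, 0 and 10.9 CPM at 0 hpa and 193, 166 and 163 CPM at 8 hpa (log2 change 5.06, SE 0.40, edgeR adjusted p = 4.8e-11). All DMSO libraries at 8 hpa were above all UNC0379 libraries at 8 hpa, and the difference between treatments at that time passed the test (log2 difference −1.10, edgeR adjusted p = 0.00798). The changes themselves were not shown to differ, with an interaction of −0.67 (SE 0.85, edgeR adjusted p = 0.828) that rests on few counts at 0 hpa. Under UNC0379 it stood at 165, 153 and 69.9 CPM at 24 hpa.

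Among the falls, Sc4wPfr_80.g19903.t1 and Sc4wPfr_536.g2784.t1 had the smallest adjusted p. Sc4wPfr_80.g19903.t1 went from 233, 246 and 297 CPM at 0 hpa to 45.7, 64.8 and 70.7 CPM at 8 hpa under UNC0379 (log2 change −2.08, SE 0.24, edgeR adjusted p = 1.9e-07). In DMSO it had 376, 558 and 366 CPM at 0 hpa and 324, 358 and 335 CPM at 8 hpa (log2 change −0.35, edgeR adjusted p = 0.452). The loss was thus seen under UNC0379 and was not detected in DMSO, and the interaction was −1.73 (SE 0.31, edgeR adjusted p = 5.6e-04). The transcript was also lower under UNC0379 than in DMSO at 0 hpa (log2 difference −0.74, edgeR adjusted p = 0.0373). Its level was already low at 3 hpa under UNC0379, with 22.5, 34.6 and 44.6 CPM, and stood at 54.1, 73.7 and 65.3 CPM at 12 hpa.

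Sc4wPfr_536.g2784.t1 fell in both treatments, with the larger change under UNC0379. It went from 167, 156 and 192 CPM to 17.8, 36.8 and 39.0 CPM under UNC0379 (log2 change −2.41, SE 0.28, edgeR adjusted p = 2.9e-07). In DMSO it went from 454, 446 and 260 CPM to 187, 227 and 237 CPM (log2 change −0.83, SE 0.23, edgeR adjusted p = 0.0280). The DMSO fall did not pass in 7 alternative fits, among them those without DMSO 0 hpa replicate 1 (−0.69, edgeR adjusted p = 0.220), DMSO 0 hpa replicate 2 (−0.68, 0.116) and DMSO 8 hpa replicate 1, 2 or 3 (−0.73, −0.86 and −0.89, with 0.162, 0.0888 and 0.0707). The interaction was −1.59 (SE 0.37, edgeR adjusted p = 0.00799). The transcript was lower under UNC0379 than in DMSO at 0 hpa too (log2 difference −1.16, edgeR adjusted p = 0.00143). In DMSO the level returned to 331 to 455 CPM at 24 hpa, and under UNC0379 it stood at 61.0 to 69.9 CPM.

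Of the loci with a gene name, 2 could be tested. Dickkopf-related protein 3 (Sc4wPfr_504.g10351.t1) carries the name of a family of secreted proteins, some of which inhibit Wnt signalling in vertebrates. It had 28.9, 43.1 and 91.8 CPM at 0 hpa and 17.8, 12.3 and 13.0 CPM at 8 hpa under UNC0379 (log2 change −1.96, SE 0.43, edgeR adjusted p = 0.00246). The highest of the 0 hpa values was that of replicate 3, and the fall did not pass without it (log2 change −1.37, edgeR adjusted p = 0.0864). In DMSO the locus held a narrow range, with 85.1 to 90.0 CPM at 0 hpa and 72.1 to 76.1 CPM at 8 hpa (log2 change −0.26, edgeR adjusted p = 0.776). The interaction did not pass the threshold (−1.70, SE 0.55, edgeR adjusted p = 0.0809). It passed without UNC0379 0 hpa replicate 1 (−2.01, edgeR adjusted p = 0.0325) and without the 24 hpa libraries (−1.69, edgeR adjusted p = 0.0360). Compared with DMSO at the same time, the locus was lower under UNC0379 at 3, 8 and 12 hpa (log2 difference −2.69, −2.36 and −1.66, edgeR adjusted p = 1.7e-05, 1.1e-04 and 0.00307). At 0 hpa the difference did not pass (−0.66, edgeR adjusted p = 0.334).

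The other tested locus with a name, Sc4wPfr_489.2.g16698.t1 (Brachyury protein-like), is named after the T-box transcription factor Brachyury, whose *Hydra* genes are known from the hypostome. It rose from 14.4, 10.8 and 5.0 CPM at 0 hpa to 27.9, 38.5 and 29.7 CPM at 8 hpa under UNC0379 (log2 change 1.69, SE 0.49, edgeR adjusted p = 0.0298). In DMSO it rose from 2.5, 2.2 and 1.4 CPM to 25.4, 6.6 and 12.7 CPM, on 4 and 26 counts (log2 change 2.74, SE 0.69, edgeR adjusted p = 0.0120). The groups did not overlap in either treatment, and the changes were not shown to differ (interaction −1.05, SE 0.86, edgeR adjusted p = 0.673). At 0, 3 and 8 hpa, each UNC0379 library was above each DMSO library. These differences did not pass (log2 difference 2.16, 1.55 and 1.11, edgeR adjusted p = 0.0966, 0.0741 and 0.156). At 12 and 24 hpa the treatments overlapped. By in situ hybridization, the study reports reduced *Hv_Brachyury1* expression under the inhibitor. Whether this locus is that gene was not tested. The call under UNC0379 was lost without 0 hpa replicate 2 (1.75, edgeR adjusted p = 0.0730), 0 hpa replicate 3 (1.34, 0.193), 8 hpa replicate 2 (1.51, 0.150) or 8 hpa replicate 3 (1.79, 0.0598), and that in DMSO without 0 hpa replicate 1 or 3 or 8 hpa replicate 1 (2.96, 2.50 and 2.21, edgeR adjusted p = 0.0620, 0.0983 and 0.122). At these counts, neither rise is firm.

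**Figure D2:**
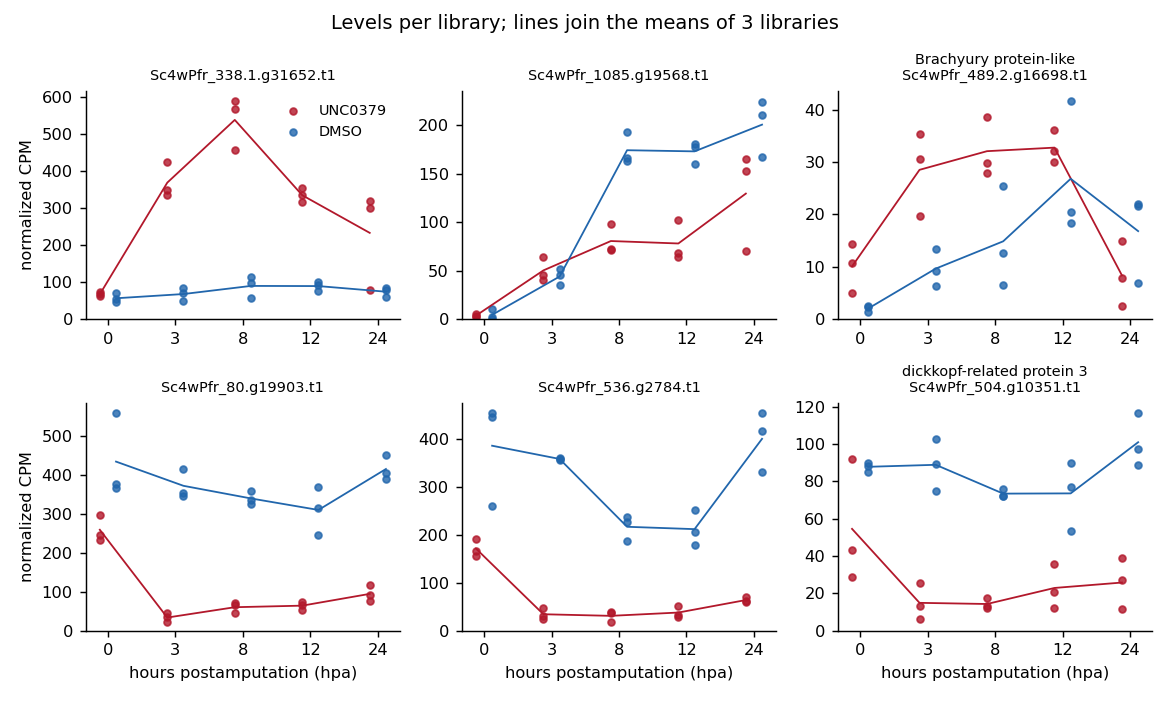
Level in normalized CPM (linear axis from 0) of 6 named transcripts in all 30 libraries against hpa (the 5 times at equal spacing), with UNC0379 in red and DMSO in blue. Points are single libraries and lines join the means of 3; Sc4wPfr_338.1.g31652.t1 had 457 to 590 CPM in the 3 UNC0379 libraries at 8 hpa and at most 113 CPM in any DMSO library at 0 or 8 hpa, and Sc4wPfr_80.g19903.t1 and Sc4wPfr_536.g2784.t1 lay at 17.8 to 70.7 CPM under UNC0379 at 8 hpa.

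To ask how much of the change belongs to regeneration as it runs in the vehicle, the 302 transcripts were followed in DMSO from 0 to 8 hpa. The DMSO contrast shares no library with the UNC0379 contrast, but all 30 libraries set the filter and the spread of both tests. In DMSO, 4.3% of tested transcripts passed, 2.32% with a rise and 1.98% with a fall. Of the 119 that rose under UNC0379, 28 also rose in DMSO (23.5%) and 3 fell. The median change of the 119 in DMSO was 0.45, and 83 were above 0. Of the 183 that fell under UNC0379, 9 also fell in DMSO (4.92%) and 6 rose, with a median of −0.21 and 123 below 0. The share called in the same direction was thus well above the background for the rises and nearer to it for the falls. For the 28 shared rises, the median change was 1.93 under UNC0379 and 1.65 in DMSO, with the larger change under UNC0379 in 15. The 9 shared falls had medians of −1.39 and −1.01. No call was made in DMSO for 88 of the 119 and 168 of the 183, which does not show that they did not change. The DMSO counts depended on single libraries: the 28 shared rises were 15, 16 and 18 without DMSO 0 hpa replicate 1, DMSO 0 hpa replicate 3 and DMSO 8 hpa replicate 3, and the 9 shared falls were 4 without DMSO 0 hpa replicate 1, DMSO 8 hpa replicate 2 or UNC0379 8 hpa replicate 3, 5 without DMSO 0 hpa replicate 3 or UNC0379 8 hpa replicate 2, and 24 without the 24 hpa libraries.

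The difference between both changes was tested as an interaction, the change under UNC0379 minus that in DMSO. It passed for 173 transcripts (3.43%), positive in 72 (1.43%) and negative in 101 (2%). Positive values were found for 28 of the 119 rises (23.5%), with a median of 1.35 over the 119, and negative values for 65 of the 183 falls (35.5%), with a median of −1.34 over the 183. Since the interaction holds the UNC0379 change itself, its direction among these transcripts is largely set by their choice. It did not pass for 91 of the rises and 117 of the falls. Of the 72 positive interactions, 28 rose under UNC0379 and 40 fell in DMSO, and of the 101 negative ones, 65 fell under UNC0379 and 32 rose in DMSO. The count of 173 was 109 without DMSO 0 hpa replicate 1, 115 without UNC0379 8 hpa replicate 1 or 2, and 326 without the 24 hpa libraries. For the falls, the 65 became 42 without DMSO 0 hpa replicate 3, 43 without UNC0379 8 hpa replicate 2 and 122 without the 24 hpa libraries, and for the rises the 28 became 53 without the latter.

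**Figure D3:**
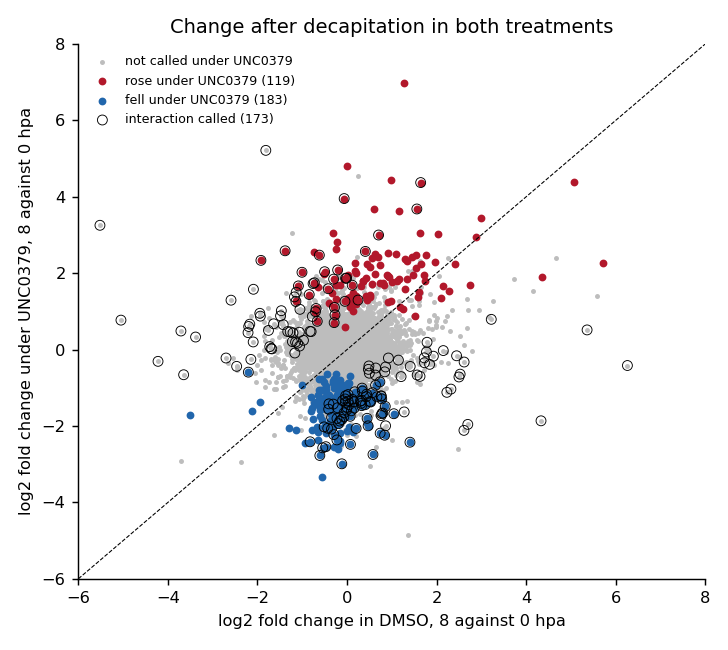
Log2 fold change from 0 to 8 hpa under UNC0379 (vertical axis) against that in DMSO (horizontal axis) for the tested transcripts, with equal changes on the dashed line. Red and blue points are the 119 rises and 183 falls under UNC0379 and rings mark the 173 interactions; most blue points lie near 0 on the DMSO axis, and 28 red points also rose in DMSO.

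Whether the treated and vehicle tips differed for these transcripts at other times was asked in the 3 and 12 hpa libraries. None of them entered the 8 against 0 hpa contrast, but all 30 libraries set the filter and the spread of its test. Backgrounds cover all tested transcripts (median 34.7 CPM over the 30 libraries). They were not matched in level to the falls (106 CPM) or the rises (44.8 CPM). At 3 hpa, with 3 libraries of each treatment, 120 of the 183 falls (65.6%) were lower under UNC0379 than in DMSO, against a background of 5.47%, and 3 were higher. The median difference of the 183 was −1.59 on the log2 scale. Of the 119 rises, 40 (33.6%) were higher under UNC0379, against 1.61%, and 0 were lower, with a median of 0.95. At 12 hpa, 94 of the falls (51.4%) were lower, against 4.91%, and 2 were higher (median −1.06), and 34 of the rises (28.6%) were higher, against 1.33%, and 3 were lower (median 0.72). The 120 and the 94 fell to 76 and 60 without UNC0379 8 hpa replicate 3, which reduces the number of falls followed, and the 34 became 53 without the 24 hpa libraries. At 0 hpa, where the UNC0379 libraries are those of the contrast, 32 of the 183 falls were already lower than in DMSO (background 2.97%) and 8 were higher (1.17%), and of the rises 6 were higher and 14 lower.

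Values at the neighbouring times are given side by side. Against the same 0 hpa libraries, which these contrasts share with the 8 hpa contrast, 67 of the 119 rises passed at 3 hpa (median 1.45, background 1.74%), 74 at 12 hpa (median 1.51, background 1.98%) and 35 at 24 hpa (median 0.71, background 5.23%). Of the 183 falls, 108 passed at 3 hpa (median −1.14, background 2.87%), 82 at 12 hpa (median −1.10, background 2.46%) and 110 at 24 hpa (median −1.14, background 9.12%). The 24 hpa counts include UNC0379 24 hpa replicate 3, the shallowest library of the series at 146798 assigned reads. Since the transcripts were chosen against these 0 hpa libraries, the backgrounds are not the counts to be had without a change, and nothing is read from them about when the change took place. In a direct comparison of 8 with 3 hpa under UNC0379, 0 of 5046 transcripts passed in edgeR, with 276 at an unadjusted p under 0.05 and a lowest adjusted p of 0.0852. DESeq2 called 20 and limma-voom 3, and edgeR called 100 when the spread was estimated from the 6 libraries compared alone, 37 without the 24 hpa libraries and 49 without 3 libraries that stand apart (replicate 3 of UNC0379 0 hpa, UNC0379 24 hpa and DMSO 24 hpa). Further change between 3 and 8 hpa was therefore not settled by these data. From 3 to 12 hpa, in libraries outside the contrast, 10 transcripts (0.198%) passed, and 3 of the 119 rises were among the higher ones (background 0.119%) and 1 among the lower (background 0.0793%), with 0 of the 183 falls. The fallen transcripts together held 5.32%, 5.12% and 4.76% of the normalized total at 3 hpa and 5.88%, 5.87% and 6.11% at 12 hpa, above the 8 hpa libraries and below the 8.37% to 10.9% of the DMSO libraries. Since these transcripts were chosen for low levels in the 8 hpa libraries, no recovery after 8 hpa is read from this order.

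The level profiles of 3 classes of these transcripts differed in shape. The level of a class is the median over its transcripts of the log2 CPM relative to the mean of DMSO 0 hpa. The 28 that rose in both treatments stood at 0.54, 0.33 and 0.00 under UNC0379 at 0 hpa. Their median difference from DMSO at that time was 0.38, with 5 called higher (background 1.17%) and 1 lower (background 2.97%). They stood at 2.36, 2.15 and 2.52 under UNC0379 and 1.48 to 1.69 in DMSO at 8 hpa, and at 2.38, 2.30 and 2.39 against 1.55, 1.54 and 1.58 at 12 hpa. The DMSO libraries were below those of UNC0379 at 12 hpa, with a median difference of 0.67 against 0.38 at 0 hpa. The 28 that rose with a positive interaction started lower under UNC0379, with −0.57, −0.61 and −0.45 at 0 hpa. Their median difference from DMSO at that time was −0.73, with 8 called lower (background 2.97%) and 1 higher (background 1.17%). Since the interaction holds the 0 hpa levels, this lower start is partly set by the choice of the class. They stood at 0.88, 0.57 and 1.04 at 3 hpa and 0.47, 0.36 and 0.50 at 12 hpa under UNC0379, and at −0.55 to −0.19 in the DMSO libraries of these times. The 65 that fell with a negative interaction had levels under UNC0379 of −1.30, −1.37 and −1.23 at 3 hpa, −1.58, −1.53 and −1.52 at 8 hpa, then −0.83, −1.05 and −0.92 at 12 hpa. Their DMSO libraries lay between −0.09 and 0.26 at all 5 times. The levels at 0 and 8 hpa chose the classes, and those at 3, 12 and 24 hpa did not, other than through the shared filter and spread.

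**Figure D4:**
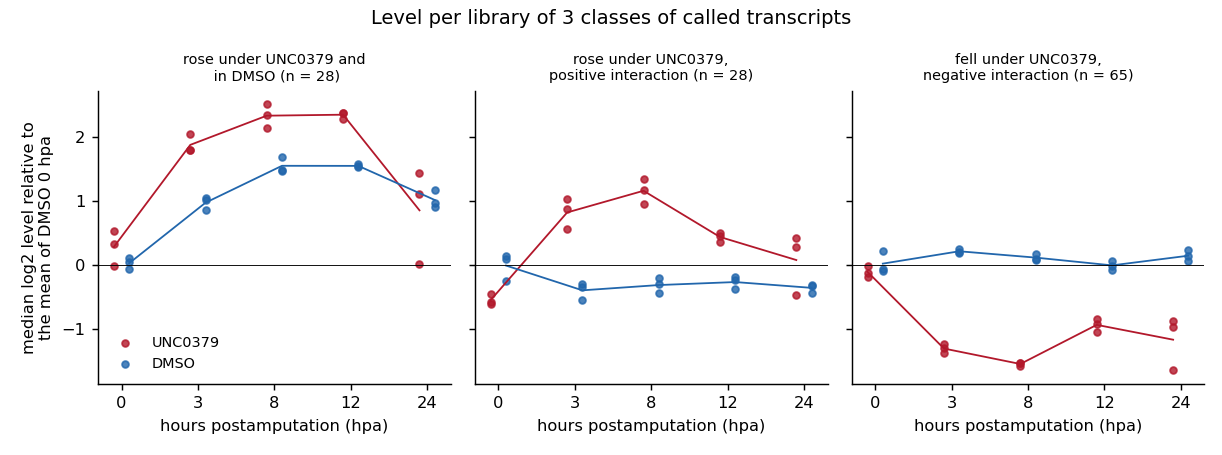
Median log2 level per library, relative to the mean of DMSO 0 hpa, of 3 classes of transcripts against hpa (the 5 times at equal spacing), with UNC0379 in red and DMSO in blue. Points are libraries and lines join the means of 3. The 65 falls with a negative interaction lay at −1.58 to −1.52 under UNC0379 at 8 hpa. UNC0379 24 hpa replicate 3 departed from its group in all 3 panels. Its median over all tested transcripts was low too, at −0.74 against −0.07 and −0.02 in replicates 1 and 2.

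Replicate 3 of UNC0379 0 hpa was the farthest of the 3 from the others for 48.9% of tested transcripts, for 38.7% of the rises and for 51.4% of the falls. The median SD of log2 CPM within UNC0379 0 hpa was 0.41, and 0.24 without it, against 0.30 in UNC0379 8 hpa, 0.33 in DMSO 0 hpa and 0.29 in DMSO 8 hpa. Without this library, 220 transcripts passed, 79 with a rise and 141 with a fall. Of the 119 rises, 71 were still called, and of the 183 falls, 123. All 302 kept their sign, and all 48 rises and 60 falls that were lost had an unadjusted p under 0.05, with median adjusted p of 0.106 and 0.132 (edgeR). The median change of the 119 went from 1.85 to 1.72 and that of the 183 from −1.43 to −1.42. A further 26 transcripts were called that had not been, of which 2 had not been tested. The 4 transcripts named by identifier alone kept their calls, and both loci with a gene name lost theirs. The count thus depended more on this library than on 0 hpa replicates 1 and 2, without which 256 and 257 passed. The signs and medians of the 302 were largely fixed in advance, since these transcripts were chosen with this library and the other libraries are shared. Single transcripts could move more than the medians, such as dickkopf-related protein 3 from −1.96 to −1.37. Leaving out a library of 8 hpa also cost calls: 237 passed without replicate 1, 231 without replicate 2 and 198 without replicate 3.

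**Figure D5:**
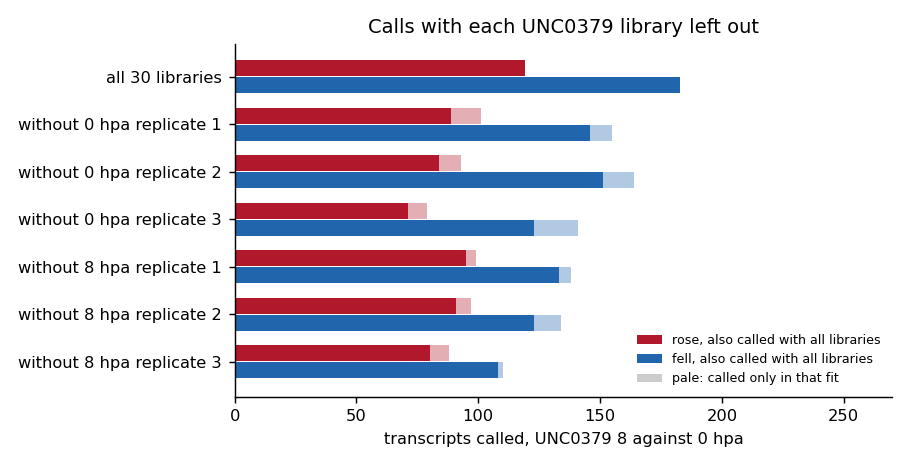
Number of transcripts called from 0 to 8 hpa under UNC0379 (horizontal axis) with all 30 libraries and with each of the 6 libraries left out; red bars are rises and blue bars falls. The full colour marks transcripts also called with all libraries, such as 71 rises and 123 falls without replicate 3 of 0 hpa, and the pale end marks calls made in that fit and not with all libraries.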

How the data were processed

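Reads were counted per transcript by the authors, and each deposited file holds the raw counts of 1 library. Trimmomatic, HISAT2 and HTSeq are named in the submitters' processing notes, with no version. Genome build and annotation are not stated in the sources used here, and neither is the use of strand, without which overlapping and antisense transcripts cannot be separated. No molecular identifiers are named, so that floors cover counting error only. Assigned reads per library ran from 146798 to 811079. The summary lines of HTSeq stayed out of library sizes and tests. Over the 6 libraries, reads without an alignment made up 36.7% to 69.0%, ambiguous reads 12.3% to 27.6%, reads that hit no feature 5.08% to 9.68% and multiply aligned reads 2.36% to 5.05%. Outside the 6, DMSO 24 hpa replicate 3 had 98.2% of reads without an alignment.

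The analysis used edgeR 4.0.16 in R 4.3.3. filterByExpr over the 10 groups kept 5046 of 51290 transcripts, and TMM factors were 0.931 to 1.11 in the 6 libraries. A robust quasi-likelihood fit of all 30 libraries had 1 coefficient for each group and a common biological coefficient of variation of 22.6%. Adjusted p-values (Benjamini-Hochberg, threshold 0.05) cover all tested transcripts, and SE is the log2 change over the root of F. For a single value, 3 against 3 libraries allow no exact two-sided p under 0.1. Correlations were taken on log2 CPM (prior count 2). Libraries of 1 group among the 6 differed by more than sampling noise (chi-square per degree of freedom 1.80 to 13.1). Of 94298 transcript and gene model identifiers, 0 were found in the reference gene table. Named transcripts were the 2 rises and 2 falls with the smallest adjusted p, and loci that the study prints with an identifier and a name. The members, lists, tests and this rule were chosen with earlier results of these data known.

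Alternatives were upper-quartile normalization, DESeq2 1.42.0, limma-voom (limma 3.58.1), no filter and at least 10 counts in 15 libraries. Further ones were the compared libraries alone, no 24 hpa libraries, the replicate number as a block and sums per gene model. Larger libraries were also thinned to a smaller total, and each library of 0 and 8 hpa was left out in turn. For the 8 against 3 hpa count, so was each UNC0379 library of 3 hpa. Single libraries of DMSO 3 hpa, 12 hpa and 24 hpa were not left out. The treatment counts at 3 hpa and at 12 hpa were thus not checked against single libraries of those times. Leaving out 3 libraries that stand apart, and all alternatives of the 8 against 3 hpa count, were chosen after seeing the data. The scripts were tested on simulated data. Figures were drawn with matplotlib 3.10.9.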

Additional observations from a re-analysis of the deposited data

Results flagged for a closer look

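The change from 0 to 8 hpa differed between UNC0379 and DMSO, by the interaction test, for 173 transcripts (edgeR, adjusted p under 0.05). Among the transcripts named above, it differed for Sc4wPfr_338.1.g31652.t1 (2.29 on the log2 scale, edgeR adjusted p = 5.4e-04), Sc4wPfr_80.g19903.t1 (−1.73, edgeR adjusted p = 5.6e-04) and Sc4wPfr_536.g2784.t1 (−1.59, edgeR adjusted p = 0.00799). A formal test for an outlying value was not made, because each group had 3 libraries. Replicate 3 of UNC0379 0 hpa, which stood apart by correlation and spread, is described above.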

How the results depend on the processing

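For the 6 named transcripts that were tested, no log2 change reversed its direction under the alternatives run. The signs of all 302 were compared only for the fit without UNC0379 0 hpa replicate 3. The 302 transcripts called at 8 against 0 hpa under UNC0379 were 203 to 395 under the alternatives other than leaving out single libraries. The falls numbered 114 with the compared libraries alone and the rises 79 in thinned libraries. For DMSO, 217 became 368 without 24 hpa (193 rises, 175 falls) and 505 without 3 libraries that stand apart (265 and 240), with 74 rises in thinned libraries. The interaction count of 173 became 326 without 24 hpa (129 positive, 197 negative), 411 without those 3 libraries (159 and 252) and 108 in thinned libraries (44 and 64). The 0 calls at 8 against 3 hpa became 20 in DESeq2, 3 in limma-voom, 3 with no filter, 2 with at least 10 counts in 15 libraries, 100 with the compared libraries alone, 37 without 24 hpa and 49 without 3 libraries. The thinned libraries hold fewer counts and the other changes alter the libraries or the model that set the spread; the cause was not tested further.

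With single libraries left out, calls under UNC0379 ran from 198 to 314, with 79 to 130 rises and 110 to 184 falls. For DMSO they ran from 112 to 286, with 58 to 156 rises and 54 to 130 falls. Interactions ran from 109 to 234, with 47 to 87 positive and 62 to 147 negative, and 8 against 3 hpa from 0 to 1. The DMSO rise of Sc4wPfr_338.1.g31652.t1 passed without 24 hpa (0.72, edgeR adjusted p = 0.0404) and without 3 libraries (0.73, 0.0254).

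With the replicate number as a block, 318 transcripts were called at 8 against 0 hpa under UNC0379, 247 in DMSO, 208 as interactions and 4 at 8 against 3 hpa. Deviations from the group mean of same-numbered UNC0379 libraries at 0 and 8 hpa correlated at −0.05, −0.01 and −0.22. For this reason, the numbers were not taken as pairs. The last value involves replicate 3 of 0 hpa, which stood apart. Between groups of the whole series, the mean correlation was 0.06 for same numbers and −0.03 for other numbers. Of 30 libraries, 20 correlated best with a library of their own number. The replicate numbers thus carried some structure over the series. Depth limits transcripts of few counts: 1 count was worth up to 2.54 CPM in the 6 libraries.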

Other observations

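A number of changes of DMSO tips from 0 to 8 hpa were not called under UNC0379, with a called difference between the treatments. For 36 transcripts, a fall was called in DMSO, none under UNC0379 and the interaction was positive. For 26, a rise was called in DMSO, none under UNC0379 and the interaction was negative. A further 57 rises and 52 falls in DMSO were not called under UNC0379 without a called interaction, so that no difference was shown for them. In the opposite direction in both treatments, 3 transcripts rose under UNC0379 and fell in DMSO (medians 2.02 and −1.09), and 6 fell under UNC0379 and rose in DMSO (medians −1.44 and 0.78).

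Identifiers that start with MSTRG made up 27.2% of the tested transcripts, 36.1% of those that rose under UNC0379 and 8.74% of those that fell. The 119 rises lay in 118 gene models and the 183 falls in 183, and 0 gene models held a rise and a fall.

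For the other loci with a gene name, the counts did not allow a test. Frizzled5/8 (Sc4wPfr_179.g7820.t1), named as a Wnt receptor, had 7 counts in 30 libraries, with 1 at 0 hpa and 0 at 8 hpa under UNC0379, which allows up to 2.09 CPM at 8 hpa (3 counts over the group, counting error only). Villin-1 (Sc4wPfr_162.1.g23859.t1), named as an actin-binding protein, had 10 counts at 0 hpa and 10 at 8 hpa under UNC0379, and 9 and 11 in DMSO, which is too few to detect a change.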
